A study of Mus musculus with 4 samples.

Results

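The genes encoding respiratory complex I were measured in palmitate-treated and control C2C12 myoblasts. They were taken as all genes whose symbol starts with Nduf, matched through the RefSeq accession of each array probe. The rule found 46 of the 19751 named genes on the array, with 54 probes, and all 46 genes had at least 1 probe that could be tested. They fell into 36 subunits of the complex, 8 assembly factors (Ndufaf1 to Ndufaf8) and 2 genes that carry the name but lie outside the complex, Ndufa4 and Ndufa4l2.

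C2C12 is a mouse line of satellite cells, the stem cells of skeletal muscle, isolated from thigh muscle. Palmitate-treated cultures of proliferating myoblasts received 0.1 mmol/l of this saturated fatty acid for 48 h in DMEM with 5% foetal bovine serum (FBS). The treatment protocol gives control cultures the same medium with equal amounts of ethanol and fatty acid-free albumin, although the label of the control channel names 10% HS in place of FBS. A difference in medium, if there was one, would enter every ratio and cannot be told apart from palmitate. One line cultured under 1 set of conditions limits these cells as a model of muscle. Each of 4 two-colour Agilent arrays carried RNA of 1 palmitate culture (cyanine-5, red) and 1 control culture (cyanine-3, green). No array had its dyes exchanged, so an effect of palmitate and an effect of the dye on a probe cannot be told apart. A log2 ratio is palmitate over control throughout, and -1 stands for a halved signal.

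Complex I, the NADH:ubiquinone oxidoreductase of the inner mitochondrial membrane, takes electrons from NADH and passes them through a flavin and a chain of iron-sulfur clusters to ubiquinone, while protons are pumped out of the matrix. It is L-shaped: the matrix arm holds the electron path and the membrane arm holds the proton pumps. Core subunits are those conserved from bacteria, accessory subunits surround and stabilise them, and assembly factors help to build the complex but are not part of it once finished. The core subunits of the membrane arm are encoded by mitochondrial DNA and carry no Nduf symbol. In muscle the complex is a main point of entry of electrons from glucose and fatty acid oxidation.

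Array 1 stood apart from the other arrays over the whole transcriptome. Its log2 ratios correlated at -0.08 with the mean of arrays 2, 3 and 4 over the 24169 tested probes, whereas those 3 arrays correlated at 0.68 to 0.77 with each other. The main results are therefore given with and without array 1. Array 1 was set apart by these same ratios, and leaving it out tends to lower the spread between arrays. Adjusted p-values without array 1 are therefore likely too small and serve as descriptions. Over arrays and channels, 57.6 to 70.7% of probes were well above background, and 53 of the 54 complex I probes were tested. Of the myoblast markers, 7 of 7 were above background on all palmitate arrays and 6 of 7 on all control arrays. Of the markers of differentiated muscle, 5 of 6 were above background on all palmitate arrays and 5 of 6 on all control arrays. For comparison, 2 and 1 of 5 adipocyte markers, 1 and 2 of 4 macrophage markers and 2 and 2 of 4 endothelial markers were so in palmitate and control cultures. The endothelial marker Kdr, a VEGF receptor, had log2 ratios of 0.98, -1.33, -1.09 and -0.93, and -1.11 without array 1 (adjusted p = 0.00273 in limma). Its part in the results was not tested. Of the 5 tested markers of differentiated muscle, 2 were higher (unadjusted p below 0.05 in limma) and 0 passed after adjustment. Over arrays 1 to 4, Myog had log2 ratios of 0.29, 0.50, 0.23 and 0.19, and Myh3 0.56, 0.13, 0.26 and 0.32. In contrast, Acta1 and Mymk averaged -0.08 and -0.06. How far the cultures had differentiated was not tested.

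No complex I gene passed an adjusted p of 0.05 in limma over all 4 arrays, and neither did any of the 13712 tested genes (0.0%). At an unadjusted p under 0.05, 15 of 46 complex I genes (32.6%) were lower after palmitate, beside 13.3% of all tested genes, and 3 (6.52%) were higher, beside 10.8%. The mean log2 ratio was below 0 for 34 of 46 genes (73.9%), beside 49.8% of all tested genes. In all, 16 were below 0 on every array (34.8%, beside 16.7%) and 6 were above 0 on every array (13.0%, beside 15.6%). Ndufa4, outside the complex, was among the 15 and the 16, and Ndufa4l2 among the 16. Of the 36 subunits alone, 11 were lower and 3 higher at that p. Of these subunits, 12 were below 0 on every array and 5 above. The median over the complex I genes was -0.16, with -0.01, -0.09, -0.21 and -0.27 on arrays 1 to 4, while the median of all tested genes was 0.00. Without array 1 the complex I median was -0.19. Since the arrays measured whole cultures, fewer cells of a kind and less RNA per cell cannot be told apart.

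The family median depended on how the dyes were balanced. These values come from loess, which removes a dye difference that changes with brightness. With each array centred on its median instead, the median of all tested genes shifted to 0.20, and relative to it the complex I median was -0.02, with 24 of 46 genes below it. Tested against 0, and so not against that shifted median, 0 complex I genes were lower and 1 was higher at an unadjusted p under 0.05, beside 0.139% and 2.9% of all tested genes. With each array centred on the median of the tested genes, a setting added after the data were seen, 8 complex I genes were lower (17.4%, beside 4.33%) and 2 were higher (4.35%, beside 5.75%). The complex I median was then -0.06, beside -0.05 over all tested genes. Complex I probes were bright, with a median mean log2 intensity of 13.87 against 10.33 over all tested genes. The order of the genes within the family was similar after loess and after median centring. Spearman rho was 0.94 and Pearson r of the values 0.97 across 46 genes, which are not independent replicates.

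**Figure D1:**
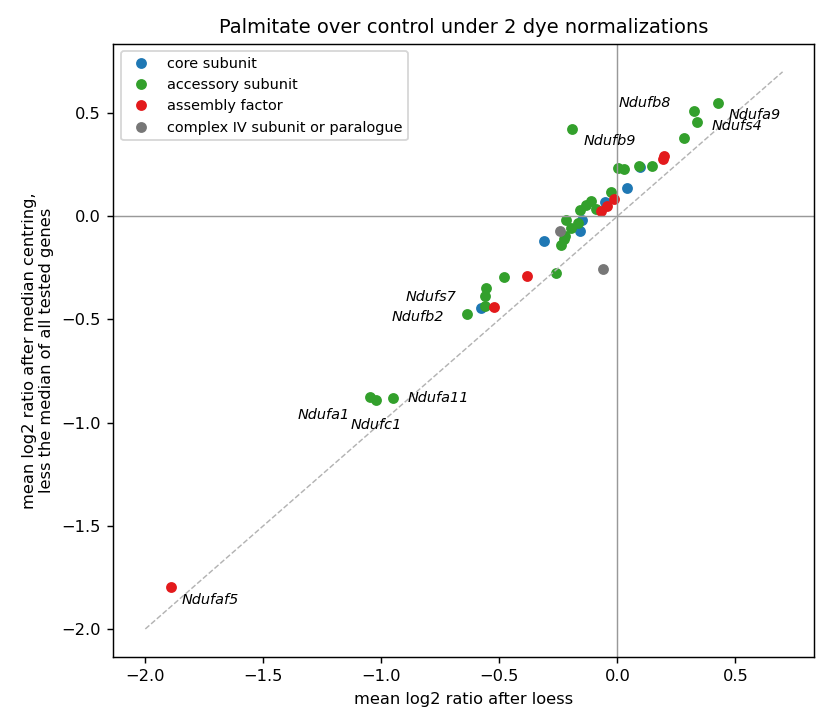
Mean log2 ratio, palmitate over control, of 46 complex I genes after loess (horizontal axis) and after median centring less the median of all tested genes (vertical axis), coloured by role, with a dashed line of equal values. Most points lie a little above the line. Ndufa1, Ndufc1, Ndufa11 and Ndufaf5 are lowest and Ndufa9 highest under both settings, and Ndufb9, measured on 3 arrays after outlier spots were left out, is the point farthest above the line (-0.19 and 0.42).

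The small accessory subunits of the membrane arm, Ndufa1, Ndufc1 and Ndufa11, had the lowest values among the subunits, at close to a halved signal. Ndufa1, a single-helix subunit close to the junction of the arms, had normalized log2 signals of 14.87, 13.89, 14.41 and 14.00 in the palmitate cultures of arrays 1 to 4, against 15.24, 15.33, 15.32 and 15.49 in the control cultures. All 4 palmitate signals were below all 4 control signals. Its log2 ratio was -0.36, -1.43, -0.91 and -1.49, with a mean of -1.05 ± 0.53 (SD, n = 4 arrays; adjusted p = 0.118 in limma). Without array 1 it was -1.28 with an adjusted p of 0.00335 in limma.

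Ndufc1, another short membrane subunit, had palmitate signals of 14.20, 12.97, 13.15 and 12.89, against 14.25, 14.37, 14.07 and 14.62 in control cultures. The palmitate culture of array 1 lay within the control range and the other 3 lay below it. The log2 ratios of -0.04, -1.40, -0.92 and -1.72 had a mean of -1.02 ± 0.73 (SD, n = 4; adjusted p = 0.129 in limma), and -1.35 without array 1 (adjusted p = 0.00419). Ndufa11, which lies at the contact of complex I with complex III in respiratory supercomplexes, had palmitate signals of 10.64, 8.62, 9.25 and 9.44, against 10.33, 10.57, 10.34 and 10.51 in control cultures. Here array 1 went the other way, with the highest signal of all 8 cultures in its palmitate culture. The log2 ratios were 0.31, -1.96, -1.09 and -1.07 (mean -0.95 ± 0.94, SD, n = 4; adjusted p = 0.181 in limma), and -1.37 without array 1 (adjusted p = 0.00617).

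Ndufb2, a single-helix subunit of the distal membrane arm, had log2 ratios of 0.00, -0.73, -0.71 and -1.11 (mean -0.64 ± 0.46, SD, n = 4; adjusted p = 0.135 in limma), and -0.85 without array 1 (adjusted p = 0.00617). Its control signals spanned 14.82 to 14.94 and its palmitate signals 13.82 to 14.82, so nearly all of its spread lay in the palmitate cultures. Ndufa1, Ndufc1, Ndufa11 and Ndufaf5 were the 4 complex I genes with at least a 1.6-fold lower mean (8.7%, beside 1.67% of all tested genes), and none was higher by that fold. Array 1 had the smallest size of ratio in 13 of the 15 genes lower at an unadjusted p under 0.05. It had so in 1 of the 3 higher genes and in 24 of all 46 complex I genes. The share over all tested genes was not counted.

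**Figure D2:**
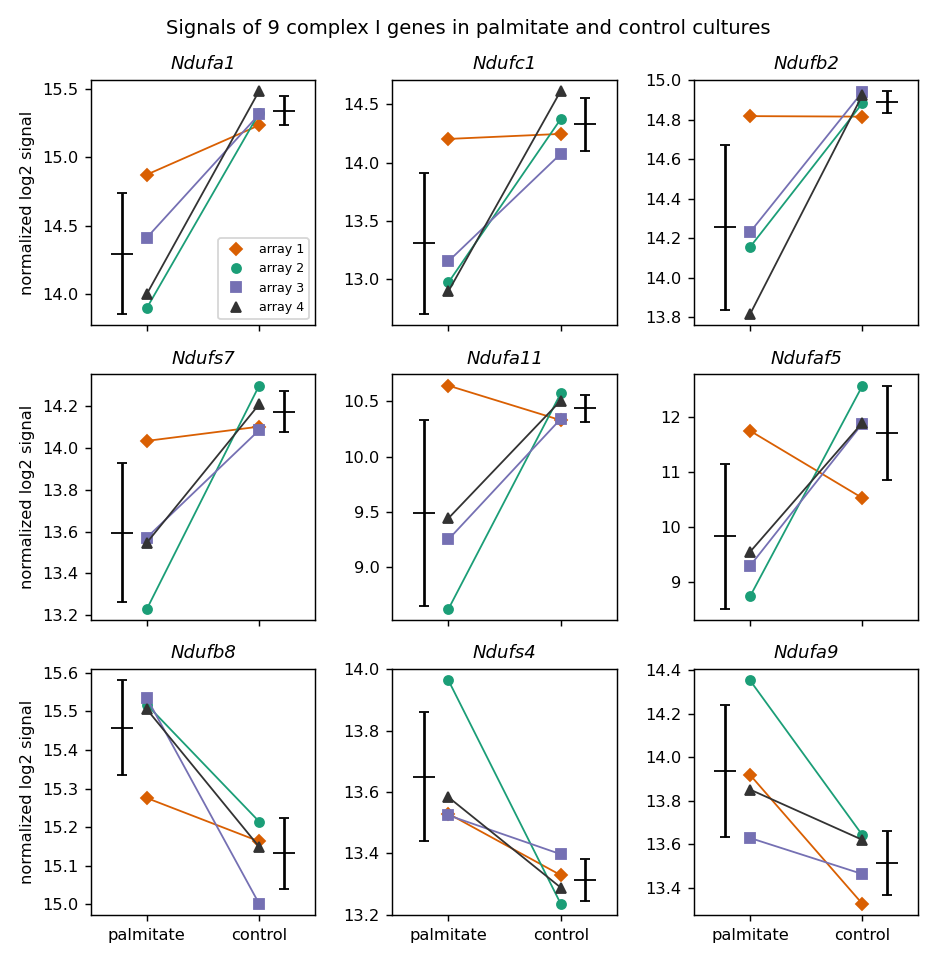
Normalized log2 signal (loess, then Aquantile between arrays) of 9 complex I genes in palmitate cultures (left) and control cultures (right), with a line for each array and the mean ± SD beside each group (n = 4). The palmitate signals of Ndufa1 and Ndufs7 lie wholly below the control signals and those of Ndufb8 and Ndufs4 wholly above. In Ndufa11 and Ndufaf5 the line of array 1 runs against the other 3.

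At the other end, Ndufa9, Ndufs4, Ndufb8 and Ndufa10 had the highest values, all under a 1.6-fold increase. Ndufa9, an accessory subunit at the foot of the matrix arm that holds a bound NADPH, had log2 ratios of 0.59, 0.71, 0.17 and 0.23 (mean 0.43 ± 0.27, SD, n = 4; adjusted p = 0.135 in limma), and 0.37 without array 1 (adjusted p = 0.0855). It was higher on all arrays, but the signals overlapped: 13.63 to 14.35 in palmitate cultures and 13.33 to 13.64 in control cultures. Ndufs4, an accessory subunit of the matrix arm whose loss in mice is used as a model of Leigh syndrome, had log2 ratios of 0.20, 0.73, 0.13 and 0.29 (mean 0.34 ± 0.27, SD, n = 4; adjusted p = 0.182 in limma), and 0.38 without array 1 (adjusted p = 0.0827). Its palmitate signals of 13.52 to 13.96 lay above its control signals of 13.24 to 13.40.

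Ndufb8, a membrane arm subunit whose protein level is often read as a measure of assembled complex I, had log2 ratios of 0.11, 0.30, 0.53 and 0.36 (mean 0.33 ± 0.17, SD, n = 4; adjusted p = 0.141 in limma). It was the 1 complex I gene higher at an adjusted p of 0.05 without array 1, at 0.40 (adjusted p = 0.0306 in limma). Ndufa10, a kinase-like subunit on the matrix face of the membrane arm, had log2 ratios of 0.18, 0.22, 0.70 and 0.03 (mean 0.28 ± 0.29, SD, n = 4; adjusted p = 0.247 in limma). Its value was highest on array 3, and without that array its log2 ratio was 0.14. Normalized signals did not overlap between the groups in 9 lower genes (19.6%, beside 8.47% of all tested genes) and 2 higher genes (4.35%, beside 5.4%).

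**Figure D3:**
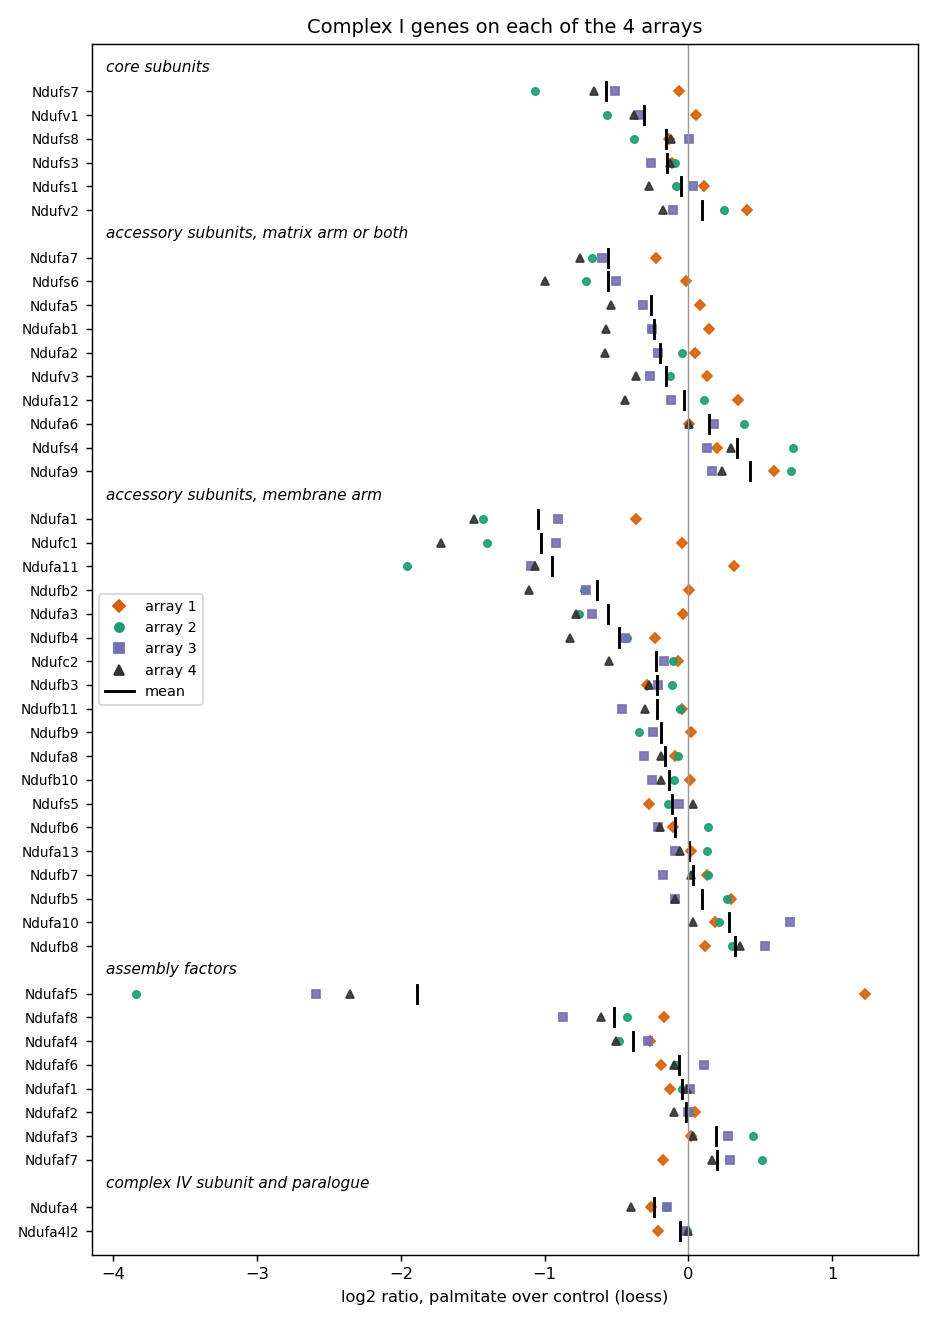
Log2 ratio, palmitate over control, of 45 of the 46 complex I genes on each array (symbols) with the mean over arrays (vertical bar), grouped by role and ordered by mean. Membrane arm subunits span -1.05 to 0.33 and matrix arm subunits -0.58 to 0.43. Ndufaf5 has the widest spread of all, with array 1 at 1.23 and the others between -3.84 and -2.35.

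The 7 core subunits encoded in the nucleus all belong to the matrix arm. Of these, 2 were lower and 0 higher at an unadjusted p under 0.05, beside 13.3% and 10.8% of all tested genes. Ndufs7, which carries the iron-sulfur cluster that hands electrons to ubiquinone, had palmitate signals of 14.03, 13.23, 13.57 and 13.55, against 14.10, 14.30, 14.08 and 14.21 in control cultures. The groups did not overlap. Its log2 ratios of -0.07, -1.07, -0.51 and -0.66 had a mean of -0.58 ± 0.41 (SD, n = 4; adjusted p = 0.136 in limma), and -0.75 without array 1 (adjusted p = 0.0116). Ndufv1, which binds NADH and the flavin, had log2 ratios of 0.05, -0.57, -0.34 and -0.38 (mean -0.31 ± 0.26, SD, n = 4; adjusted p = 0.197 in limma), and -0.43 without array 1 (adjusted p = 0.0245).

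The other core subunits described here did not pass that test. Ndufs8, a carrier of iron-sulfur clusters, had log2 ratios of -0.14, -0.38, 0.00 and -0.12 (mean -0.16 ± 0.16, SD, n = 4). Ndufs3 had -0.12, -0.09, -0.26 and -0.13 (mean -0.15 ± 0.08). Although below 0 on all arrays, Ndufs3 lay at about the median of the family.

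Ndufs1, the largest core subunit, had log2 ratios of 0.11, -0.09, 0.03 and -0.28 (mean -0.05 ± 0.17). Its arrays were split in sign. Ndufv2, a partner of Ndufv1 at the tip of the matrix arm, had 0.41, 0.25, -0.11 and -0.18 (mean 0.09 ± 0.28), so it was split as well. The core median was -0.15 over 7 genes and the accessory median -0.19 over 29 genes.

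The accessory subunits outside these lists stayed between the extremes. The 19 complex I genes not chosen for full values, all accessory subunits, had means of -0.56 to 0.14 with a median of -0.20, and 15 of the 19 were below 0. The lowest of them were Ndufa3 (-0.56 ± 0.35), Ndufa7 (-0.56 ± 0.23) and Ndufs6 (-0.56 ± 0.41; SD, n = 4 each), chosen after their values were seen. Ndufa7 was below 0 on all arrays, at -0.22, -0.67, -0.60 and -0.75, and its array 1 value was the nearest to the others among the 3. Ndufab1, the mitochondrial acyl carrier protein that sits in both arms, averaged -0.24 ± 0.29.

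By position, membrane arm subunits had a median of -0.19 (19 genes, 7 lower and 1 higher at an unadjusted p under 0.05) and matrix arm subunits of -0.15 (16 genes, 4 lower and 2 higher). Of all tested genes, 13.3% were lower and 10.8% higher at that p. The difference of these medians, membrane minus matrix, was -0.09, -0.02, -0.09 and 0.09 on arrays 1 to 4 (mean -0.03 ± 0.08, SD, n = 4), a size below the spread between arrays. The 4 lowest subunits were nevertheless all in the membrane arm, and they were chosen by their values.

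Among the 8 assembly factors, 3 were lower and 0 higher at an unadjusted p under 0.05, beside 13.3% and 10.8% of all tested genes. Ndufaf5, a methyltransferase-like protein that in human cells hydroxylates an arginine of Ndufs7, had palmitate signals of 11.75, 8.73, 9.29 and 9.54, against 10.53, 12.57, 11.88 and 11.90 in control cultures. Array 1 was reversed: its palmitate culture was near the controls of the other arrays and its control culture was the lowest of the 4. The log2 ratios of 1.23, -3.84, -2.59 and -2.35 had a mean of -1.89 ± 2.18 (SD, n = 4; adjusted p = 0.216 in limma), and -2.93 without array 1 (adjusted p = 0.00223). A ratio above 0.8 on array 1 and below -2 on the other 3 was shared by 38 of the 24169 tested probes (0.157%), and the probe of Ndufaf5 was the only one of complex I among them. A probe of the 28S ribosomal RNA gene Rn28s1 had the same shape, at 1.42, -2.49, -2.14 and -3.35, and its part in the result was not tested. The other Ndufaf5 probe, dimmer and well above background on 3 palmitate arrays and 1 control array, was not tested, and its log2 ratio averaged 0.04 ± 0.23.

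Ndufaf8, a small protein that in human cells stabilises Ndufaf5, had log2 ratios of -0.17, -0.43, -0.88 and -0.61 (mean -0.52 ± 0.30, SD, n = 4; adjusted p = 0.125 in limma), and -0.64 without array 1 (adjusted p = 0.0130). Ndufaf4, which works with Ndufaf3 on early intermediates, had -0.26, -0.48, -0.28 and -0.50 on its brighter probe (mean -0.38 ± 0.13, SD, n = 4; adjusted p = 0.119 in limma), and -0.42 without array 1 (adjusted p = 0.0259). Its palmitate signals of 11.11 to 11.41 lay below its control signals of 11.59 to 11.85, and array 1 did not stand apart here. The other Ndufaf4 probe averaged -0.03 ± 0.10.

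The remaining 5 assembly factors did not pass the test. Ndufaf3 had log2 ratios of 0.02, 0.45, 0.27 and 0.03 (mean 0.19 ± 0.21, SD, n = 4). Ndufaf7, a methyltransferase, had -0.18, 0.51, 0.29 and 0.16 (mean 0.20 ± 0.29). These were the highest of the assembly factors, and their means were no larger than their spread. Ndufaf1, a chaperone of the membrane arm, had -0.13, -0.04, 0.01 and -0.01 (mean -0.04 ± 0.06). Ndufaf2, a paralogue of the subunit Ndufa12, had 0.05, 0.00, 0.00 and -0.10 (mean -0.01 ± 0.06). These 2 had the smallest SD of the family. Ndufaf6 had -0.19, -0.09, 0.11 and -0.10 (mean -0.07 ± 0.13).

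Subunits and assembly factors were then compared by their medians on each array. The subunits had 0.01, -0.10, -0.23 and -0.28 on arrays 1 to 4, and the assembly factors had -0.15, -0.06, 0.00 and -0.10. The difference, subunits minus assembly factors, was 0.16, -0.04, -0.23 and -0.18, with a mean of -0.07 ± 0.18 (SD, n = 4). It was negative on 3 of 4 arrays and smaller than its spread. Leaving out Ndufaf5, a choice made after its values were seen, gave -0.07 ± 0.19. Over genes, the median of the mean ratios was -0.16 for 36 subunits and -0.06 for 8 assembly factors, or -0.04 for 7 without Ndufaf5.

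**Figure D4:**
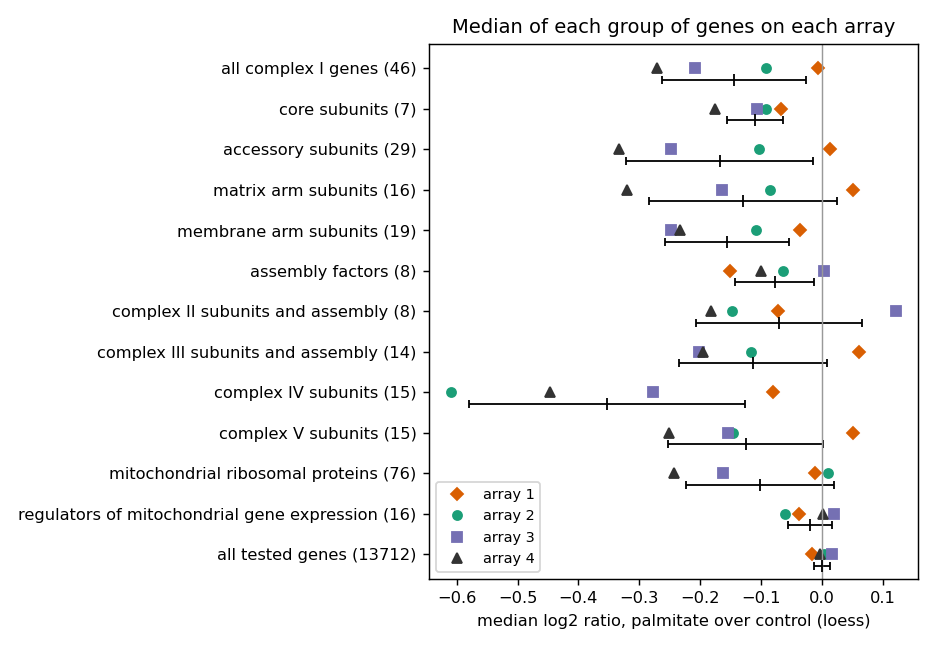
Median log2 ratio, palmitate over control, of groups of genes on each array (symbols), with the mean ± SD of the 4 array medians beneath (bars) and the number of tested genes in brackets. Complex I groups overlap each other, the medians of array 1 lie at the right end for most groups, and complex IV has the lowest mean.

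Ndufa4, first described in complex I and later assigned to complex IV, had log2 ratios of -0.26, -0.15, -0.15 and -0.40 (mean -0.24 ± 0.12, SD, n = 4; adjusted p = 0.179 in limma). Palmitate signals of 14.66 to 14.86 lay below control signals of 14.89 to 15.07. Its paralogue Ndufa4l2, known as a gene induced by hypoxia, was dim, with signals of 7.42 to 7.77 in palmitate cultures and 7.59 to 7.77 in control cultures. Its ratios were -0.21, -0.01, -0.02 and 0.00.

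Of the 7 genes with more than 1 tested probe, 2 had probes of opposite sign. The brighter probe of Ndufb6, a membrane arm subunit, averaged -0.09 ± 0.16 and the other 0.21 ± 0.13. For the matrix arm subunit Ndufv3 the values were -0.16 ± 0.21 and 0.06 ± 0.11. None of these probes passed an adjusted p of 0.05. The 2 probes of Ndufb4 gave nearly equal means of -0.48 ± 0.25 and -0.49 ± 0.29. For Ndufa5 the brighter probe, with array 2 left out as an outlier spot, averaged -0.26 ± 0.31 and the dimmer one -0.93 ± 0.73.

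Without array 1, 13 complex I genes were lower (28.3%, beside 9.84% of all tested genes) and 1 was higher (2.17%, beside 8.76%) at an adjusted p of 0.05 in limma. Array 1 was singled out after its values were seen. Leaving out any other array gave 0 complex I genes past that threshold, and 0 of all 13712 tested genes. All 13 lower genes were among the 15 lower at an unadjusted p over 4 arrays. Both counts use arrays 2, 3 and 4, so this overlap is no separate support. Across the 44 complex I genes measured on all arrays, arrays 2, 3 and 4 correlated at 0.90 to 0.92 with each other, and at 0.84 to 0.87 without Ndufaf5. Array 1 correlated with them at -0.36 to -0.24, and at 0.21 to 0.28 without Ndufaf5, so 1 gene set the sign. Genes are not independent replicates, and these values are descriptions.

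**Figure D5:**
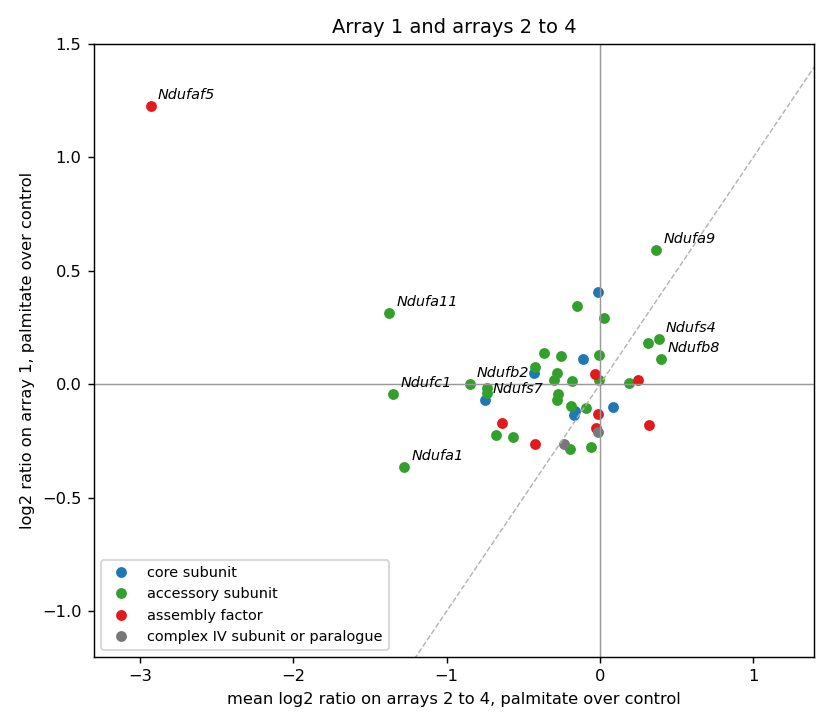
Log2 ratio, palmitate over control, on array 1 (vertical axis) and mean over arrays 2 to 4 (horizontal axis) of the complex I genes, coloured by role, with a dashed line of equal values. Ndufc1, Ndufb2 and Ndufs7, among the lowest on arrays 2 to 4, lie near 0 on array 1, Ndufaf5 and Ndufa11 lie above it, and Ndufa9 is high on both.

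Other genes of the respiratory chain were set beside complex I. Of 52 tested genes of complexes II to V, 21 were lower and 3 higher at an unadjusted p under 0.05, with a median of -0.15. Complex IV had 9 lower and 1 higher of 15 subunits and a median of -0.40. The difference of medians, complex I subunits minus complexes II to V, was -0.01, 0.14, -0.02 and -0.08 on arrays 1 to 4 (mean 0.01 ± 0.10, SD, n = 4), so complex I did not differ from them beyond the spread between arrays. Mitochondrial ribosomal proteins had 23 lower and 7 higher of 76, with a median of -0.09. Of 10 complex I assembly factors with other names, 1 was lower and 1 higher, and of 16 regulators of mitochondrial gene expression, 2 were lower and 0 higher. The shares of all tested genes given above, 13.3% lower and 10.8% higher, apply to each of these lists. With median centring, the median of complexes II to V relative to all tested genes was -0.0098.

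Promoter sequence was examined because members of the family differed in direction. RefSeq windows of 300 bases (250 before and 50 after the start, GRCm38.p6) matched 40 of the 46 genes. Short motifs known from promoters of respiratory genes were searched on both strands: CGCATGCG for the core of the NRF1 site, CCGGAAGT for ETS factors such as GABPA, and AAGATGGC for YY1. The YY1 letters were in the windows of 8 of 40 complex I genes (20.0%), beside 4.78% of 10951 tested genes with a window. Those of NRF1 were in 4 (10.0%, beside 3.94%; Ndufaf5, Ndufa11, Ndufaf4 and Ndufa8) and those of the ETS motif in 1 (2.5%, beside 8.19%; Ndufs3). The 8 genes with the YY1 letters were 5 that were lower at an unadjusted p under 0.05 (Ndufc1, Ndufs7, Ndufa3, Ndufs6 and Ndufaf8) and all 3 that were higher (Ndufa9, Ndufs4 and Ndufb8), so 8 of the 18 genes past that p held them and 0 of the other 22 with a window. This split was noticed after the values were seen and was not tested. The windows below are shown because lower and higher genes alike held a motif: Ndufc1 and Ndufaf5 were among the lowest, Ndufa9 and Ndufb8 among the highest. Capitals mark the motif, which is YY1 in Ndufc1, Ndufa9 and Ndufb8 and NRF1 in Ndufaf5, and in all 4 it lies after the start. The YY1 letters contain ATG, and whether they overlap the start of translation was not tested. No motif overlapped another in these windows. The windows are at chr3:51408906-51409205 (− strand), chr2:140170396-140170695 (+ strand), chr6:126849095-126849394 (− strand) and chr19:44555393-44555692 (− strand), each written 5′ to 3′ on the strand of its gene.
Ndufc1: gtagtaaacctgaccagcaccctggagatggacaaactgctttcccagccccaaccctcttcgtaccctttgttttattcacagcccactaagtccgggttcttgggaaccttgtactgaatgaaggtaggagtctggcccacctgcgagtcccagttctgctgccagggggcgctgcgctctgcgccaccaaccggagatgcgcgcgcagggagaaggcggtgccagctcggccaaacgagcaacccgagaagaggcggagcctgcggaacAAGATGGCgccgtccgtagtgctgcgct
Ndufaf5: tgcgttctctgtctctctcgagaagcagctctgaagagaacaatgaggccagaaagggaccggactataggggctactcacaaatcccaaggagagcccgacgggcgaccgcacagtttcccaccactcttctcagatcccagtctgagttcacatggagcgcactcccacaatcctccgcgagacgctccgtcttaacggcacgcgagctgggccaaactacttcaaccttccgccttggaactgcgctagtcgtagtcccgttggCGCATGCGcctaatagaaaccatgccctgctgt
Ndufa9: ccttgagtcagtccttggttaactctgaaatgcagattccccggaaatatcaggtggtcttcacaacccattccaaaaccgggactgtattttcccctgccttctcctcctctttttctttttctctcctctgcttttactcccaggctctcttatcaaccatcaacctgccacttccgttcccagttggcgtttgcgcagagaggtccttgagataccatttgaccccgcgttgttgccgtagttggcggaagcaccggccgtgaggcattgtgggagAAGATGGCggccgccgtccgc
Ndufb8: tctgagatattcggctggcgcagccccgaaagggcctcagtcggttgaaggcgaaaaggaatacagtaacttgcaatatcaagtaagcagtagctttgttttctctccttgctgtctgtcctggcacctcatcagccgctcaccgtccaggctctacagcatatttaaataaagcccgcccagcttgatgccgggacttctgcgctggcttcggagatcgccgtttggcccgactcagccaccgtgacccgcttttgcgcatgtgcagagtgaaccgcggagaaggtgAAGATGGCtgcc
The YY1 letters were thus found at both ends of the order of log2 ratios. The 4 genes with the NRF1 letters all averaged below 0 (-1.89 to -0.17). Ndufa1, the lowest subunit by mean, held none of the 3 motifs in its window. A match of letters is a description and not a measured binding site.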

How the data were processed

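RNA of 4 palmitate and 4 control cultures was hybridised on 4 two-colour Agilent arrays of 1 slide and read with Feature Extraction 10.7.3.1, per the submitters' processing notes. The authors deposited uncorrected medians of each spot and its background as intensity values. They also deposited processed intensity values, with background subtracted and dyes balanced by the scanner software. A further table deposited by the authors holds log2 ratios that equal their ratios to within 3e-06, with column medians of -0.16 to -0.07. The files used held median rather than mean spot signals.

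The median signals were corrected by normexp (offset 50) and normalized by loess within arrays in limma 3.58.1 (R 4.3.3, statmod 1.5.0), with control spots at weight 0 and outlier spots left out. Spots of a probe were averaged. For the signals of single cultures, mean log2 intensities were then quantile normalized between arrays (Aquantile), which left the log2 ratios unchanged. The 24169 of 39429 gene probes that Feature Extraction called well above background in 1 of the channels of every array were tested against a log2 ratio of 0 with Benjamini-Hochberg adjustment at 0.05. A gene is represented by its brightest tested probe (13712 genes). Gene names came from the RefSeq table for GRCm38.p6, which named 26055 probes. An exact two-sided sign-flip test over 4 arrays cannot go below 0.125. The share of probes above background and the number of arrays limit the precision.

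The array pairs 1 palmitate with 1 control culture, as the labels' replicate numbers do. The members and all gene lists were chosen with earlier results of these data known. Genes given with full values are the 6 lowest and 4 highest, all Ndufaf genes, the 7 core subunits, Ndufa4, Ndufa4l2 and genes whose probes differ in sign. The values of 1 of these genes are not reported here. Alternatives changed the background correction, dye normalization, filters, source, test, pairing, variance model, probe choice and replicates.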

Additional observations from a re-analysis of the deposited data

Results flagged for a closer look

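The 30 sets of 4 array values examined were the log2 ratios of genes chosen for full values or the medians of groups. The other complex I genes were not examined, Ndufa3 among them (-0.04 on array 1 and -0.78 to -0.67 on the rest). Among the 30 sets, 1 stood out by the distance of a single array. For Ndufa4l2, the log2 ratio on array 1 was -0.21, while those on the other arrays lay between -0.02 and 0.00, so the gap took up 0.889 of the whole range, above Dixon's critical value for 4 samples. Chance flags about 1 in 20 such sets. The gene was dim, and its mean of -0.06 ± 0.10 (SD, n = 4) was smaller than the spread.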

How the results depend on the processing

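The 4 arrays of 1 slide with a single dye orientation, 1 of them apart from the rest, limit what these values can show. The count of complex I genes past an adjusted p of 0.05 was 0 over 4 arrays, 14 without array 1 and 0 without any other (range 0 to 14). Of all 13712 tested genes, 0 passed over 4 arrays and 0 without array 2, 3 or 4. Without array 1, 13 complex I genes were lower and 1 higher, beside 9.84% and 8.76% of all tested genes. With no dye normalization the count was 35, 34 of them higher and 1 lower. Of all 13712 tested genes, 11745 were then higher and 12 lower, and their median sat at 1.01. Leaving out 1 array gave 10 to 20 complex I genes lower and 2 to 4 higher at an unadjusted p under 0.05. The shares of all tested genes were then 6.72 to 18.2% lower and 4.81 to 17.8% higher. The family median was -0.19 to -0.12 and the median of complexes II to V -0.22 to -0.09. The difference between subunits and assembly factors was -0.16 to -0.04 and that between arms -0.08 to -0.02. At an unadjusted p, genes lower numbered 0 with median centring (beside 0.139% of all tested genes), 8 with centring on the tested genes (4.33%), 9 with the 75th percentile of each channel as its reference (4.98%) and 1 with no dye normalization (0.102%), and genes higher 1 with median centring (2.9%) and 36 with no dye normalization (88.2%). With median centring and with no dye normalization these tests are not relative to the shifted median of all genes, and both settings differ by a constant per array, so that their values relative to all tested genes are nearly equal by construction. Relative to all tested genes, the family median was -0.018 with median centring and -0.019 with no dye normalization, and that of complexes II to V -0.0098 and -0.010.

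Single genes near 0 changed sign. With median centring and with no dye normalization, both relative to all tested genes, Ndufaf1 was at 0.051 and 0.050, Ndufaf2 at 0.084 and 0.084, Ndufaf6 at 0.026 and 0.026, Ndufb6 at 0.033 and 0.033, Ndufs1 at 0.071 and 0.071 and Ndufv3 at 0.030 and 0.029. Ndufaf2 was at 0.029 with the processed signals and 0.029 in the deposited table, and Ndufb6 at 0.059 as the mean of its probes. When 1 array was left out, the log2 ratio ranged over -0.034 to 0.014 for Ndufaf2, -0.11 to 0.019 for Ndufs1 and -0.011 to 0.18 for Ndufv2. With centring on the tested genes Ndufaf1 was at 0.0054, Ndufaf2 at 0.039 and Ndufs1 at 0.026. The cause of these shifts was not tested. A limit of 50% on the variation of each channel's signals, as in the methods, left out Ndufa11 and Ndufaf5.

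With no replicate block (limma on the channels without the array as a pair), 0 complex I genes passed the adjusted p, with a lowest value of 0.0632. Of all 13712 tested genes, 27 passed as lower and 20 as higher. At an unadjusted p under 0.05, 15 complex I genes were lower and 3 higher, beside 13.1% and 9.44% of all tested genes. An unpaired t-test, the kind named in the methods, was run on the signals normalized and filtered as here. It gave 13 complex I genes lower and 3 higher at that threshold, beside 11.5% and 7.88% of all tested genes. After adjustment 0 complex I genes passed, beside 7 lower and 2 higher of all 13712 tested genes. The paper's own preprocessing and filters were not repeated for this test, so its gene list was not retested. No other setting moved a count of complex I genes by more than 1.5 times.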
